A study of Rattus norvegicus with 30 samples.

Results

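In methyl-binding domain sequencing (MBD-seq), sheared DNA is pulled down with a domain that recognises methylated CpG sites, and what is pulled down is read by sequencing. The count of a promoter then rises with its methylated CpG sites, but also with its CpG content and with the efficiency of the capture, so it is a relative measure and no percentage of methylation. Described here are 1564 promoters with less capture in the hippocampus than in both the cortex and the thalamus, out of 19758 promoters that had a single set of counts under the same identifier in all 3 tissues (7.92%). A promoter was a window from 5000 bp upstream to 200 bp downstream of a transcription start site. Counts were expressed as CPM (counts in every 1000000 promoter counts of the library), and the median over the 10 libraries of each tissue was taken. A promoter was chosen when its median was at least 20 CPM in cortex and thalamus and when, with 1 CPM added, each of these medians was at least 2 times that of the hippocampus. Of the 13065 promoters that reached the level in both tissues, 12.0% were chosen. The tissue medians thus selected the promoters, and the levels by tissue are given below as a description without a test.

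The libraries came from adult male Sprague-Dawley rats at 3 months after the operation, 5 rats with traumatic brain injury (TBI) by lateral fluid percussion and 5 sham-operated rats that had the same surgery without the impact. From each of the 10 rats the perilesional cortex and the ipsilateral thalamus and hippocampus were taken, hence 30 libraries, and each tissue was a mixture of all its cell types. For the hippocampus, the protocol in the labels describes a dissected dentate gyrus with adjoining CA3, whereas the methods of the study describe the hippocampus with the dentate gyrus. Numbers 1 to 5 denote sham rats and numbers 6 to 10 TBI rats. DNA capture gives no expression of marker genes, and identifiers were not paired with gene symbols here, so that the tissue labels could not be checked against markers and the promoters are named by identifier. Tissue and the way in which each tissue was handled cannot be told apart.

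Gene promoters rich in CpG sites are usually unmethylated in brain cells, whereas CpG-poor promoters are often methylated. Methylation of a promoter is generally associated with low transcription, although transcription was not measured in these files. The hippocampus is known for its densely packed granule and pyramidal neurons, and its cell makeup differs from that of the cortex and thalamus. A lower count in a tissue may belong to all its cells or to a part of them, and a bulk library does not separate these.

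Total promoter counts were 1862708 to 3992056 per cortex library, 1430875 to 2440662 per hippocampus library and 2675177 to 4227800 per thalamus library. The 1564 promoters had a median count of 13 to 30 in 9 hippocampus libraries, so that many single values rested on few reads. 4 libraries stood apart in these promoters, and they are reported before any comparison. The promoters held 4.65% to 7.49% of the promoter counts in 8 cortex libraries, but 2.86% in cortex of rat 4 and 2.02% in cortex of rat 6. They held 1.45% to 3.15% in 9 hippocampus libraries, but 7.05% in hippocampus of rat 5. They held 5.43% to 6.62% in 9 thalamus libraries, but 2.19% in thalamus of rat 6. Cortex of rats 4 and 6 and thalamus of rat 6 were thus within the range of the other hippocampus libraries, and hippocampus of rat 5 was within the range of the other cortex libraries.

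**Figure D1:**
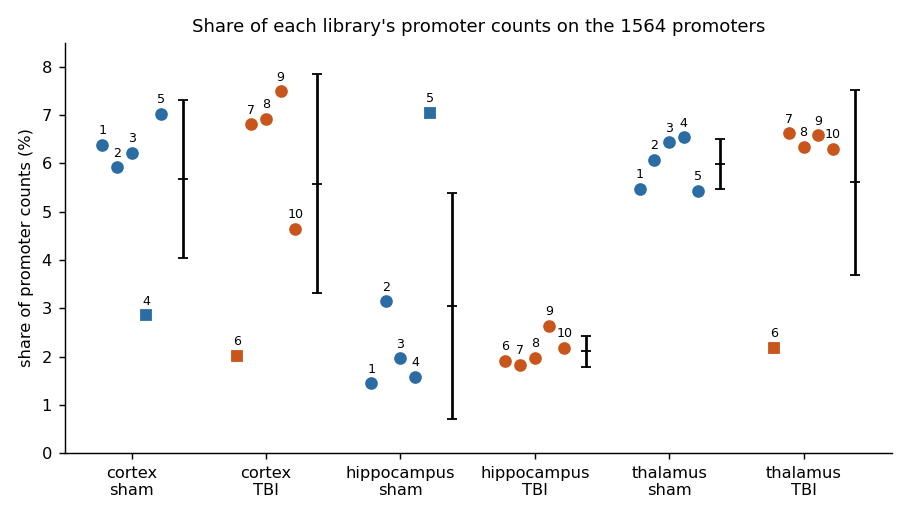
Share of the promoter counts of each library that fell on the 1564 promoters, in percent, by tissue and group. Points are libraries with the rat number, squares are the 4 libraries that stood apart, and bars are the mean and SD of the 5 libraries. Hippocampus libraries lay at 1.45% to 3.15% except rat 5 at 7.05%, and the other tissues lay at 4.65% to 7.49% except cortex of rats 4 and 6 and thalamus of rat 6.

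The remaining 18194 matched promoters, which the rule did not choose, were compared in the same way. Over these, cortex of rat 4 correlated more closely with the mean log2 profile of the hippocampus libraries (r = 0.972) than with that of the other cortex libraries (0.922), and cortex of rat 6 did so as well (0.965 and 0.910). Hippocampus of rat 5 correlated with the cortex profile at 0.956 and with the hippocampus profile at 0.887. Thalamus of rat 6 remained nearest to the thalamus (0.942), yet it was nearer to the hippocampus (0.931) than to the cortex (0.905). Cortex of rat 10, which is not among the 4 libraries, was nearest to the cortex but had a correlation of only 0.723 with it, lower than that of the 4 libraries with their own tissue, and the 5% most counted of these promoters held 61.0% of their counts. It held the smallest share on the chosen promoters (4.65%) of the 8 cortex libraries. These are correlations across promoters within a library, which are not independent replicates. Whether these libraries differ in the tissue, in the capture or in their labels was not tested. The 4 libraries are kept in all main values, and the tests over the set are also given without them.

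The median level of the 1564 promoters was much the same in cortex and thalamus, on which the rule set the same limits. The median over the promoters was 30.03 CPM for cortex (range 20.003 to 1516), 30.55 CPM for thalamus (20.02 to 1588) and 10.6 CPM for hippocampus (2.01 to 577). For comparison, all matched promoters had medians of 30.2 CPM, 30.6 CPM and 20.9 CPM, respectively. The smaller of the 2 ratios to the hippocampus had a median of 2.51 and reached at least 3 in 376 promoters, 4 in 118, 5 in 45, 8 in 7 and 10 in 1 promoter. The 3 promoters just inside the threshold had smaller ratios of 2.00063, 2.00016 and 2.00005, and the 3 just outside had 1.99871, 1.99836 and 1.99833, so the edge of the set passed through promoters that hardly differed.

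**Figure D2:**
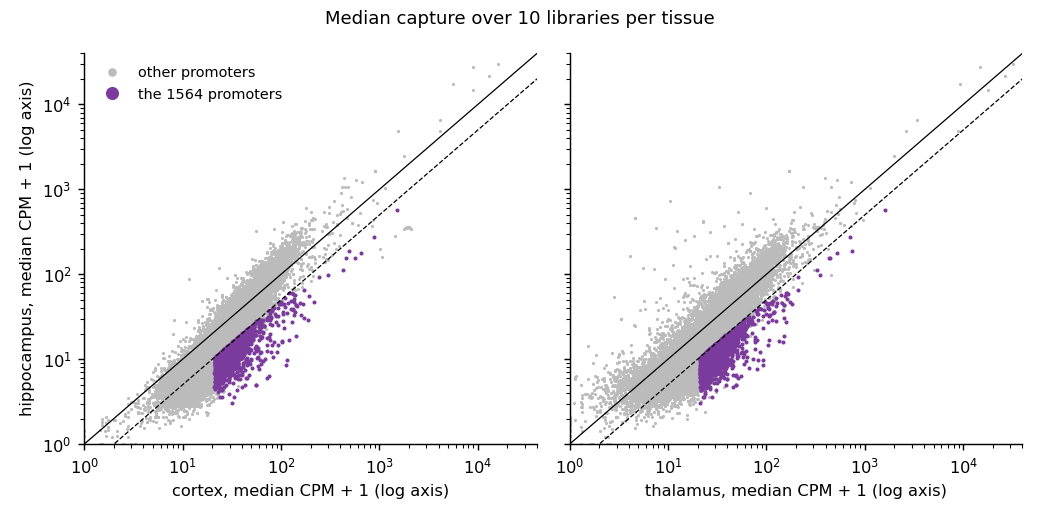
Median CPM + 1 over the 10 libraries of the hippocampus (vertical, log axis) against cortex (left) and thalamus (right) (horizontal, log axes) for each matched promoter. The solid line marks equality and the dashed line a ratio of 2. The 1564 promoters lie on or under the dashed line in both panels by the rule, with a median of 10.6 CPM in the hippocampus.

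The chosen promoters were concentrated at low levels, although they reached high ones. Of the promoters with 20 to 25 CPM as the lower of their cortex and thalamus medians, 26.0% were chosen (522 of 2011). The share was 21.2% between 25 and 30 CPM, 13.3% between 30 and 40 CPM, 4.37% between 40 and 60 CPM and 2.21% between 60 and 100 CPM. It was 8.88% at 100 CPM or more (43 of 484), so the share fell with the level except at the top. In the hippocampus, 7 of the promoters had a median above 100 CPM.

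All promoters, not only the chosen ones, tended to lower CPM in the hippocampus. The median log2 ratio over the 19758 matched promoters was 0.43 for cortex over hippocampus and 0.38 for thalamus over hippocampus, and 0.54 and 0.45 without the 4 libraries. A few percent of promoters took a larger part of the counts in the hippocampus by the median library, although the ranges overlapped. Among the promoters not chosen, the 5% with the highest counts held 35.7% to 50.2% of the counts in 9 hippocampus libraries (median 39.9%). They held 25.5% to 39.2% in 9 thalamus libraries (median 28.1%) and 24.5% to 61.0% in 8 cortex libraries (median 26.6%). With library sizes scaled by the trimmed mean of M-values (TMM) over the 30 libraries, these overall log2 ratios were 0.08 and 0.04, and 490 of the 1564 promoters still met the rule, with no others. The number chosen thus depended on how the libraries were scaled, and 1074 of the promoters no longer met the ratio or the level under that scaling.

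Within single rats, lower hippocampal capture was found in nearly all the promoters wherever neither library stood apart. In these 7 rats, 1513 to 1564 of the 1564 promoters had a lower CPM in the hippocampus than in the cortex. Of all matched promoters, 50.4% to 73.2% did. In rats 4, 5 and 6, 1483, 886 and 908 promoters did (68.4%, 55.8% and 56.5% of all). Against the thalamus, 1534 to 1564 promoters were lower in the hippocampus in 8 rats (59.7% to 72.0% of all). Rats 5 and 6 had 402 and 965 such promoters (43.8% and 39.1% of all). The same counts had chosen the promoters, so these numbers describe the set and are no test of it. Rat 5 was therefore the rat in which most of the promoters had more capture in the hippocampus than in the thalamus.

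**Figure D3:**
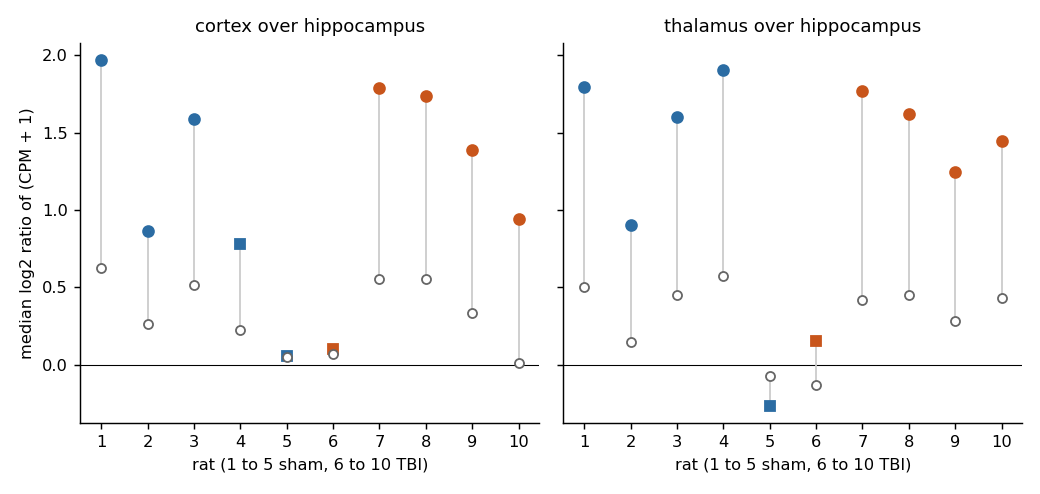
Median log2 ratio of CPM + 1 over the 1564 promoters (filled symbols, blue sham and orange TBI) and over all 19758 matched promoters (open circles) within each rat, for cortex (left) and thalamus (right) over hippocampus. Squares mark rats in which 1 of the libraries stood apart. The promoters had medians of 0.86 to 1.97 against the cortex in 7 rats, and 0.78, 0.06 and 0.10 in rats 4, 5 and 6.

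Because of the 4 libraries, the libraries of the tissues overlapped in almost every promoter. With all libraries, 1 of the 1564 promoters had every hippocampus library below every cortex library (0.111% of all matched promoters did) and 13 had every hippocampus library below every thalamus library (1.3% of all). Without the 4 libraries, 1084 promoters had no overlap between hippocampus and cortex (19.4% of all matched promoters had none) and 1339 had none between hippocampus and thalamus (22.4% of all). In 1015 promoters the 9 hippocampus libraries lay below all 17 libraries of the other tissues (11.8% of all). As the same counts had chosen the promoters, nothing further is read from these numbers.

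The promoter with the largest ratio was ENSRNOG00000049342. In the hippocampus it had 4.14, 21.7, 11.1, 6.08 and 204 CPM in sham rats 1 to 5 and 5.89, 6.29, 7.59, 7.63 and 8.60 CPM in TBI rats 6 to 10. In the cortex it had 136, 131, 77.6, 31.5 and 186 CPM in the sham rats and 9.14, 139, 91.8, 160 and 75.4 CPM in the TBI rats. In the thalamus it had 83.8, 109, 111, 118 and 86.6 CPM in the sham rats and 7.81, 108, 58.4, 95.5 and 79.3 CPM in the TBI rats. Only rat 5 had a high value in the hippocampus, higher than in any other library, and rat 6 had low values in both other tissues.

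The promoter ranked next, ENSRNOG00000048115, behaved in the same way. Its medians were 55.1 CPM in the cortex, 3.91 CPM in the hippocampus and 47.6 CPM in the thalamus. Its hippocampus values were 1.18 to 5.33 CPM in 9 rats and 101 CPM in rat 5, while rat 6 had 4.37 CPM in the cortex and 1.42 CPM in the thalamus. A further promoter had exactly the same counts in all 30 libraries, and 5 such pairs were among the 1564 promoters, leaving 1559 distinct sets of counts. Reads of such pairs cannot be told apart, so these promoters are uncertain as single regions. Over the 10 promoters with the largest ratios, the medians ran from 3.75 to 17.8 CPM in the hippocampus, from 38.8 to 140.1 CPM in the cortex and from 44.7 to 148.3 CPM in the thalamus.

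The 4 libraries departed from their tissue in the median over the set and not in single promoters alone. Unlike elsewhere, the tissue medians here were taken over the libraries that did not stand apart. Hippocampus of rat 5 was above the hippocampus medians by a median log2 difference of 1.59 and was at 0.00 from the cortex medians. Cortex of rat 6 was below the cortex medians by a median log2 difference of -1.54 and at 0.06 from those of the hippocampus. Thalamus of rat 6 was at -1.45 from its own tissue and at 0.11 from the hippocampus. Cortex of rat 4 lay between the tissues, at -1.14 from the cortex and at 0.49 from the hippocampus.

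The spread between rats of a group was also larger with these libraries. The median coefficient of variation of CPM over the 1564 promoters was 73.3% in sham hippocampus (n = 5) and 43.8% without rat 5, against 28.5% in TBI hippocampus. In the cortex it was 32.6% for sham and 43.9% for TBI rats, and 16.1% and 25.6% without rats 4 and 6. It was 15.6% in sham thalamus and 36.9% in TBI thalamus, of which 12.4% remained without rat 6. For all matched promoters it was 32.1% in sham hippocampus and 24.9% without rat 5, at a median level of 20.4 CPM without rat 5 against 10.4 CPM for the chosen promoters, and a lower level by itself raises this coefficient. In sham and TBI cortex without rats 4 and 6, all matched promoters had 20.1% and 29.4%, more than the chosen promoters, whose level there was similar.

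Gene bodies were counted in rows separate from promoters, and the rule did not use them. The promoter window reaches 200 bp into the gene, so the 2 may share reads, which was not tested. In the gene bodies tested below, the counts were a median of 4.25% of the promoter counts. Each of the 29 gene bodies tested against the thalamus had the counts of 1 exon row, as given below. Whether the gene body rows cover whole gene bodies was not examined further, so they are not taken as an independent measure. Counts in these rows were sparse. Of the 1564 genes, 75.4%, 49.7% and 64.2% had any gene body count in cortex, hippocampus and thalamus. Of all gene body rows, 74.98%, 53.7% and 60.6% had any. The genes held 2.65% to 4.25% of the gene body counts in 8 cortex libraries, 0.644% to 1.33% in 9 hippocampus libraries and 2.27% to 3.15% in 9 thalamus libraries. Cortex of rats 4 and 6 had 1.16% and 0.871%, hippocampus of rat 5 had 3.78%, and thalamus of rat 6 had 0.718%. The share of these genes in the gene body counts was thus divided between the tissues, and between the 4 libraries and the rest, as the share in the promoter counts was.

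The share of gene body counts among promoter and gene body counts together moved with the same libraries. It was 1.34% to 1.89% in 8 cortex libraries and 2.92% and 2.86% in cortex of rats 4 and 6. It was 2.46% to 3.33% in 9 hippocampus libraries and 1.60% in hippocampus of rat 5. In the thalamus it was 2.07% to 2.78% in 9 libraries and 3.68% in rat 6. Within each tissue, the libraries that stood apart on the 1564 promoters thus also stood apart in the gene body share, although the other thalamus and hippocampus libraries overlapped in it, and the part of either measure in the other was not tested.

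**Figure D4:**
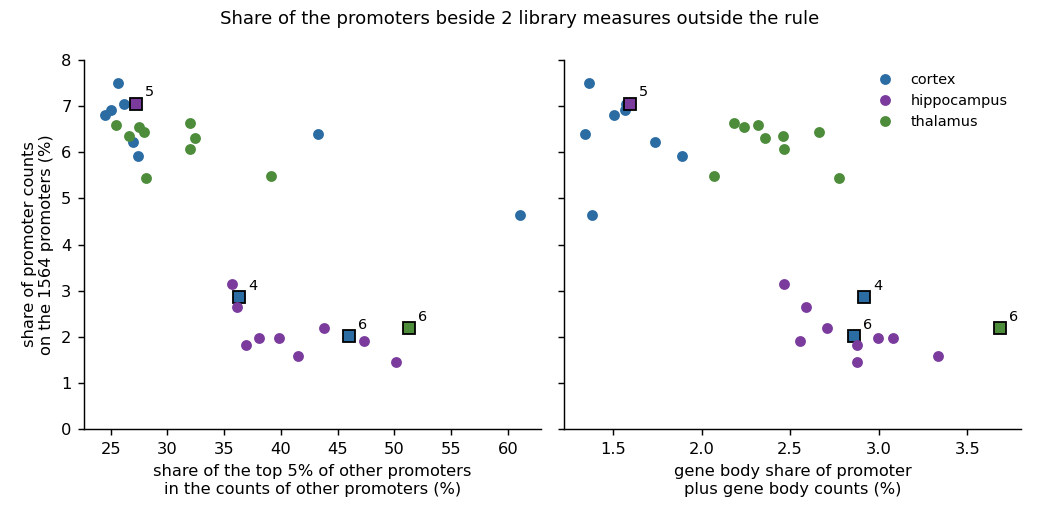
Share of promoter counts on the 1564 promoters (percent, vertical) in the 30 libraries against the share of the 5% most counted of the other promoters in the counts of those promoters (left, percent) and against the gene body share of promoter plus gene body counts (right, percent). Colours are tissues, and labelled squares are the 4 libraries that stood apart. Cortex of rats 4 and 6 lie with the hippocampus libraries in both panels, and hippocampus of rat 5, at 7.05%, lies with the cortex libraries.

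Few gene bodies had enough counts for a test. Between hippocampus and cortex, 14 of the 1564 genes passed the filter on low counts, and 11 of them had fewer gene body counts in the hippocampus at an adjusted p under 0.05 (edgeR quasi-likelihood test, Benjamini-Hochberg), with 0 higher at the adjusted or unadjusted threshold. Of all 612 gene bodies tested, 18.3% were called (3.59% higher and 14.7% lower in the hippocampus), 112 in number. Without rat 1, 4 of 17 were called, and 70 of all gene bodies tested. Between hippocampus and thalamus, 29 passed, of which 24 were lower and 2 higher, against 41.2% called of 1281 tested (18.7% higher and 22.5% lower). Without the 4 libraries, 14 of 15 were lower than in the cortex (23.5% of all tested, with 10.5% higher), and 27 of 30 were lower and 2 higher than in the thalamus (24.5% and 18.1% of all tested). In the cortex, hippocampus and thalamus taken alone, 9, 7 and 30 of the 1564 gene bodies passed the filter. Most of those tested against the thalamus thus passed on their counts in the thalamus, so that their direction was largely fixed by the filter, and these counts are no support for a difference over the set. Each of the 29 gene bodies had the same counts as 1 of the exon rows in every tissue, so exons add no separate measurement for them.

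The gene body row of ENSRNOG00000033341, equal to 1 exon row, had less capture in the hippocampus than in the cortex. It held 243 to 3363 CPM of the gene body counts in the cortex (median 2256), 160 to 3204 CPM in the hippocampus (median 548) and 185 to 1436 CPM in the thalamus (median 1117). The lowest cortex and thalamus values were those of rat 6, and the highest hippocampus value was that of rat 5. The log2 difference of hippocampus minus cortex was -1.98 (SE 0.57, adjusted p = 0.0190, edgeR) and -2.97 without the 4 libraries, a call that was lost without rat 1 (adjusted p = 0.0679). Against the thalamus the log2 difference was -0.92 (SE 0.40, adjusted p = 0.0668), which became -1.73 and passed the threshold without the 4 libraries (adjusted p = 9.70e-09), without rat 5 or rat 6 (adjusted p = 2.05e-05 and 0.0263) and with the rat as a block (adjusted p = 0.0196). In contrast, the gene body of ENSRNOG00000047210 had a median of 2108 CPM in the cortex, 1689 CPM in the hippocampus and 779 CPM in the thalamus. It was higher in the hippocampus than in the thalamus (log2 difference 0.70, SE 0.15, adjusted p = 0.000572, and 0.52 without the 4 libraries, adjusted p = 0.00187, edgeR). Against the cortex its log2 difference was -0.80 (SE 0.27, adjusted p = 0.0418), a call that was lost with the rat as a block (adjusted p = 0.0690) and without rat 1, 2, 3, 7 or 9 (adjusted p = 0.158, 0.0567, 0.0757, 0.0715 and 0.0770), and -1.03 without the 4 libraries (adjusted p = 0.00834). In this gene, the promoter had less capture in the hippocampus by the rule. Its gene body row, equal to 1 exon row, had more capture there relative to the thalamus.

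Thalamus and cortex entered the rule in the same way, so the direction of their difference was not fixed by it. Its size was limited, as the rule required at least 20 CPM and 2 times the hippocampus level in both tissues. Of the 1564 promoters, 129 (8.25%) differed between thalamus and cortex at an adjusted p under 0.05, 120 with more capture in the thalamus and 9 with more in the cortex. Of all 19677 promoters tested, 18.5% were called, 8.67% higher and 9.82% lower in the thalamus. The chosen promoters were thus called in a smaller share than all promoters, which had no such limits. This difference was not tested and is not read as a trait of the set. Of those called, nearly all were higher in the thalamus. Without the 3 libraries that stood apart in cortex or thalamus, 303 were called, 133 higher and 170 lower (14.9% and 18% of all promoters tested), so the predominance of the thalamus was lost. With the rat as a block, 288 were called, 224 higher and 64 lower (27% of all, 13.2% higher and 13.8% lower), including all 129. The number also moved with single rats, to 86, 64, 85, 84, 99, 200, 99, 86, 76 and 85 calls without rats 1 to 10, respectively. Over all promoters tested, 2511, 2618, 2783, 3346, 2737, 4695, 3440, 2848, 2676 and 3052 were called in the same fits. The number over all promoters thus moved as well.

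ENSRNOG00000045914 showed the largest difference in favour of the thalamus. It had 69.3 to 87.1 CPM in sham thalamus and 36.9 to 87.5 CPM in TBI thalamus, where the lowest value was that of rat 6. It had 9.36 to 47.8 CPM in sham and 5.96 to 34.4 CPM in TBI cortex, and 4.21 to 25.8 CPM and 5.59 to 10.6 CPM in the hippocampus. The log2 difference of thalamus minus cortex was 1.66 (SE 0.18, adjusted p = 6.93e-07), and only the highest cortex value, of rat 5, exceeded the lowest thalamus value. The next, ENSRNOG00000009063, had 24.4 to 62.1 CPM in the thalamus, 9.52 to 27.6 CPM in the cortex and 4.74 to 14.8 CPM in the hippocampus (log2 difference of thalamus minus cortex 1.55, SE 0.12, adjusted p = 7.36e-09). Without the libraries that stood apart, both log2 differences were 1.48 (adjusted p = 9.59e-13 and 3.51e-13, respectively, edgeR).

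In the opposite direction the differences were smaller and varied more. ENSRNOG00000047797 had 7.15 to 94.7 CPM in the cortex (median 41.7), 1.18 to 39.3 CPM in the thalamus (median 22.3) and 0.935 to 32.8 CPM in the hippocampus (median 3.94), with a log2 difference of thalamus minus cortex of -1.08 (SE 0.36, adjusted p = 0.0364). ENSRNOG00000042156 had medians of 48.5 CPM in the cortex, 26.8 CPM in the thalamus and 12.0 CPM in the hippocampus, with a log2 difference of -0.93 (SE 0.28, adjusted p = 0.0207). The cortex and thalamus libraries overlapped in both. Both calls were retained without the libraries that stood apart (adjusted p = 0.000171 and 1.13e-05). The call of ENSRNOG00000047797 was lost without rat 1, 2, 5, 8, 9 or 10 (adjusted p = 0.137, 0.0712, 0.0940, 0.0547, 0.0607 and 0.131), and that of ENSRNOG00000042156 without rat 1 or rat 5 (adjusted p = 0.0639 in each).

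TBI was compared with sham within each tissue to ask whether capture in these promoters differed at 3 months after injury. In none of the tissues did any of the promoters pass the adjusted threshold in the edgeR quasi-likelihood test, and 0% of all tested promoter windows passed (of 22110 for cortex, 20017 for hippocampus and 21894 for thalamus). DESeq2 called 0 in each tissue as well. At an unadjusted p under 0.05, 3 of 1564 promoters were higher in TBI cortex and 0 lower (0.534% and 0.24% of all windows), and 3 were higher and 19 lower in TBI thalamus (0.42% and 0.484%). The median log2 fold change of the promoters was 0.01 for cortex and -0.06 for thalamus. Without rat 6, 81 promoters were higher and 20 lower in TBI thalamus (3.08% and 2.68% of all windows) with a median of 0.06. Without rats 4 and 6, 46 promoters were higher and 3 lower in TBI cortex (1.69% and 0.795% of all windows), with a median of 0.06 and 0 at the adjusted threshold. Without rat 6 alone, 63 were higher and 0 lower in the cortex (1.94% and 3.15% of all windows) with a median of 0.16, and without rat 4 alone 1 was higher and 6 lower (0.478% and 0.275%) with a median of -0.10. The number and direction in the cortex thus rested on which of these libraries were kept. With 1 rat left out, the smallest number in the cortex was 1 promoter, without rat 2 or rat 10 (0.483% and 0.769% of all windows). In the thalamus it was 7, without rat 2 (0.688%).

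In the hippocampus the promoters were shifted down in TBI as a set, and this shift rested on 1 sham library. Of the 1564 promoters, 1518 passed the filter, of which 1347 had a lower and 171 a higher fitted level in TBI, with a median log2 fold change of -0.33 against 0.00 over all windows. At an unadjusted p under 0.05, 112 were lower and 2 higher (1.6% and 1.25% of all windows). Without rat 5, whose hippocampus library resembled the cortex, the median log2 fold change was 0.06, and 11 promoters were lower and 30 higher (1.13% and 2.25% of all windows), with 0 at an adjusted p under 0.05. Without each other rat, the median stayed below 0, and the number at the unadjusted threshold ran from 68 without rat 8 and 70 without rat 7 (2.24% and 2.4% of all windows) to 190, 198 and 268 without rats 3, 1 and 4 (3.32%, 3.78% and 4.6%), so it moved together with that of all windows. The share of promoter counts on the 1564 promoters was 3.04% ± 2.34 (SD, n = 5) in sham and 2.11% ± 0.325 (SD, n = 5) in TBI hippocampus, and 2.04% ± 0.773 (SD, n = 4) in sham without rat 5. An exact test that used a single dispersion for all windows and library totals called 61 of the promoters for hippocampus, 59 lower and 2 higher in TBI (0.779% of all windows, 0.445% lower and 0.335% higher). It called 0 for cortex (0.0317% of all windows, each higher) and 0 for thalamus.

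**Figure D5:**
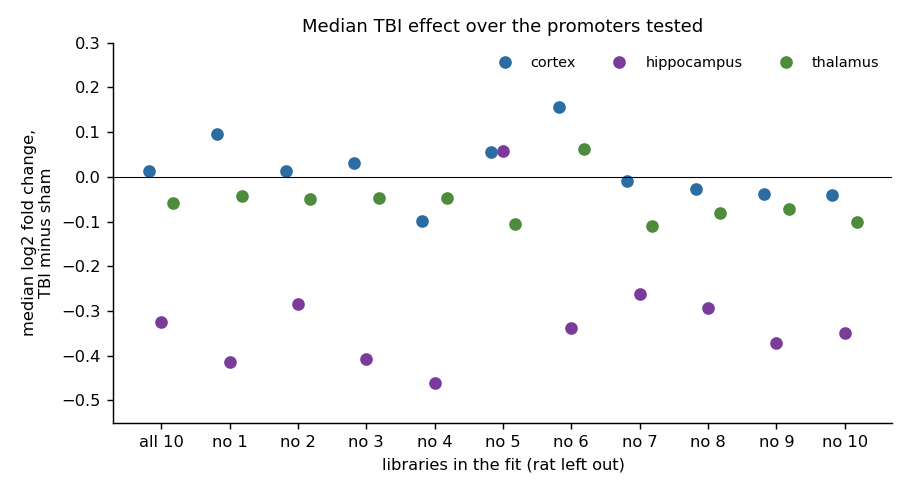
Median log2 fold change of TBI minus sham over the promoters of the set that passed the filter, with all 10 rats and with each rat left out in turn, in each tissue. Points are medians from the edgeR fits. In the hippocampus the median was -0.33 with all rats and turned to 0.06 without rat 5, and in the thalamus it went from -0.06 to 0.06 without rat 6.

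Single promoters reflected the same libraries. ENSRNOG00000050597 had 34.3, 75.5, 25.02, 21.97 and 246 CPM in the hippocampus of sham rats 1 to 5 and 23.0, 31.4, 17.1, 27.8 and 20.9 CPM in TBI rats 6 to 10. The log2 fold change was -1.55 (SE 0.45, edgeR p = 0.00305, adjusted p = 1.00) and -0.70 without rat 5, and the groups overlapped (exact two-sided permutation p = 0.111). ENSRNOG00000021485 had 7.70, 21.7, 14.4, 8.41 and 65.2 CPM in the sham and 5.30, 3.49, 7.11, 12.6 and 7.38 CPM in the TBI rats. Its log2 fold change was -1.50 (SE 0.44, edgeR p = 0.00318, adjusted p = 1.00) and -0.82 without rat 5, with an exact two-sided permutation p of 0.0476, where 0.00794 is the smallest that 5 against 5 rats can give. These promoters had the smallest unadjusted p of the set in the hippocampus, yet neither passed the adjustment. For ENSRNOG00000049342, the promoter with the largest ratio, the log2 fold change was -2.48 (SE 0.75, edgeR adjusted p = 1.00) and -0.52 without rat 5.

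Only 2 promoters had an unadjusted p under 0.05 in the other direction, and both were high in the same TBI rat. ENSRNOG00000016307 had 222 CPM in the hippocampus of rat 9, 6.29 to 17.7 CPM in the other TBI rats and 8.18 to 29.3 CPM in the sham rats (log2 fold change 1.94, SE 0.76, edgeR p = 0.0199, adjusted p = 1.00, exact two-sided permutation p = 0.746). ENSRNOG00000046732 had 232 CPM in rat 9, 5.59 to 19.3 CPM in the other TBI rats and 9.62 to 39.9 CPM in the sham rats (log2 fold change 1.67, SE 0.74, edgeR p = 0.0370, adjusted p = 1.00, exact two-sided permutation p = 0.841). In rat 9 the first had 41.7 CPM in the cortex and 33.2 CPM in the thalamus, the highest of the 10 rats but near the next (34.8 and 31.7 CPM), and the second had 42.7 and 37.6 CPM, within the range of the other rats. Without rat 9 the log2 fold changes were -0.22 and -0.40. The exact test with a single dispersion called these 2 promoters (adjusted p = 2.88e-07 and 1.64e-05) and the 2 above (1.22e-06 and 0.000122), unlike edgeR's quasi-likelihood test and DESeq2.

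The TBI effect in the hippocampus was also set against that in the other tissues by an interaction term. Of the 1564 promoters, 0 differed from the cortex and 0 from the thalamus at an adjusted p under 0.05 (0% of 19641 and 0% of 19555 promoters tested), in edgeR as in DESeq2. At an unadjusted p under 0.05, the TBI effect was lower in the hippocampus than in the cortex in 44 promoters and higher in 1 (0.911% and 0.657% of all), and lower than in the thalamus in 55 and higher in 3 (1.26% and 0.619%). Without the 4 libraries these were 13 lower and 36 higher against the cortex (0.763% and 1.36%) and 24 lower and 30 higher against the thalamus (1.37% and 1.95%). The median log2 difference of effects moved from -0.34 to 0.03 against the cortex and from -0.28 to -0.01 against the thalamus. With each rat left out, the number at the unadjusted threshold ran from 13 (without rat 5) to 176 (without rat 6) against the cortex (1.03% and 4.44% of all) and from 23 (without rat 7) to 166 (without rat 6) against the thalamus (1.53% and 4.53%). With the rat as a block, 15 were lower and 1 higher against the thalamus (0.511% and 0.302%) with a median of -0.18, fewer than the 55 and 3 without it, and 56 were lower and 0 higher against the cortex (1.02% and 0.55%) with a median of -0.27. The predominance of lower effects in the hippocampus was thus not retained without the 4 libraries.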

How the data were processed

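MBD-seq counts of 30 libraries (9 tables, 90 columns, all used) were analysed. The authors enriched methylated DNA with a methyl-binding kit and a high-salt elution, mapped reads to Rnor_5.0 with STAR without splicing, and deposited whole-number counts per promoter, exon and gene body without normalization, made with Repitools in R 3.1.0. The labels name the Genome Analyzer IIx for all libraries, whereas the methods point to an RNA-seq protocol that used a HiSeq for the thalamus.

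The promoters, the gene lists and the 4 libraries that stood apart were chosen with earlier results of these data known. Of 22307 promoter rows (20196 identifiers), 19758 were matched. Rows were filtered by filterByExpr (minimum count 10, minimum total count 15), scaled by TMM and tested by the quasi-likelihood test of edgeR 4.0.16 in R 4.3.3, with Benjamini-Hochberg adjustment over all rows tested and a threshold of 0.05. Tests between tissues used the mean of the sham and TBI contrasts. The SE given with an edgeR value was calculated back from the test. It is the absolute log2 difference divided by the square root of the quasi-likelihood F statistic. Alternatives were DESeq2 1.42.0, library totals, no filter, each rat left out, the 4 libraries left out, the rat as a block and an exact test with 1 common dispersion. Single promoters were compared by exact permutation over 252 assignments. Fits were checked on simulated counts. Python 3.11.15, pandas 2.3.3 and matplotlib 3.10.9 were used.

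The labels give the same rats in the 3 tissues, so equal numbers pair the libraries. The median correlation of deviations of the same rat was 0.03 for cortex and hippocampus, 0.12 for cortex and thalamus and -0.06 for hippocampus and thalamus. No pair of replicates agreed within sampling noise (lowest chi-square per degree of freedom 2.04). Within a tissue the libraries are from separate rats, and intervals of counts were not used. The main tests between tissues did not pair the libraries of a rat.

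The reference held 47357 genes and 0 Ensembl identifiers, so 0 of the 1564 promoters were matched to a symbol, the gene lists gave no counts, and no sequence is shown. Promoters named were the largest ratios, the largest differences among calls and, where 0 were called, the smallest p, at most 2 in each direction. Exon counts were compared only with gene bodies.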

Additional observations from a re-analysis of the deposited data

Results flagged for a closer look

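In groups of 5 libraries, a library was marked when its gap to the nearest other library took more than 71% of the range of its group (the Dixon criterion). Of 32 groups examined, 12 had such a library. In unselected groups, chance would give about 1 in 20. Most groups here were of single promoters named for their values in these same data, so that rate does not apply. The groups also share libraries and are not independent. The share of promoter counts on the 1564 promoters was 2.86% in cortex of sham rat 4 (others 5.92% to 7.03%) and 2.19% in thalamus of TBI rat 6 (others 6.31% to 6.62%). The share of their genes in gene body counts was 3.78% in hippocampus of sham rat 5 (others 0.644% to 1.33%) and 0.718% in thalamus of TBI rat 6 (others 2.88% to 3.15%).

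Among single promoters, hippocampus of rat 5 was apart from the other sham libraries in ENSRNOG00000049342 (204 CPM), ENSRNOG00000048115 (101 CPM), ENSRNOG00000050597 (246 CPM), ENSRNOG00000021485 (65.2 CPM), ENSRNOG00000046732 (39.9 CPM) and ENSRNOG00000016307 (29.3 CPM). Hippocampus of rat 9 was apart from the other TBI libraries in ENSRNOG00000016307 (222 CPM) and ENSRNOG00000046732 (232 CPM). The cortex and thalamus were not examined in this way for the last 4 promoters. The causes of these values were not tested.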

How the results depend on the processing

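The number of promoters chosen was 1564 and moved most with the scaling and the thresholds. It was 490 with TMM over the 30 libraries, 3405 and 376 with ratios of 1.5 and 3, and 2832 and 247 with minimum levels of 10 and 40 CPM. With each rat left out it was 1375 to 1706. It was 1107 with TMM within each tissue, 1530 and 1745 from sham and TBI libraries alone, and 2138 without the 4 libraries that stood apart, of which 1563 were among the 1564.

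In the hippocampus, 61 promoters were called between TBI and sham by the exact test with 1 common dispersion, against 0 under every other alternative run, and 0 were called in the cortex, the thalamus and the interactions under all. Between thalamus and cortex, 25 were called with library totals and 303 without the libraries that stood apart. With the replicate block 288 were called, and 64 to 200 with each rat left out, against 129. Over all promoters tested, the numbers called were 1520, 6465, 5317 and 2511 to 4695, respectively. Against these stood 3638 of 19677 in the main fit, so the number over all promoters moved as well. Of the gene bodies lower in hippocampus than in cortex, 7 were called with library totals and 63 without the filter. With each rat left out 4 to 16 were called, against 11. Of all gene bodies tested there, 112 were called, and 70 to 435 over the alternatives. Between hippocampus and thalamus, 262 were called without the filter and 23 to 29 with each rat left out, against 26. Of all gene bodies tested there, 528 were called, and 455 to 3477 over the alternatives. Without the filter, 1281 and 1181 of the genes were tested, against 14 and 29, so these numbers are not from the same rows. With the rat as a block, 11 and 26 gene bodies and 0 promoters in the interactions were called, as without it, while the numbers at an unadjusted p under 0.05 went from 45 to 56 against the cortex and from 58 to 16 against the thalamus.

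The median TBI effect over the set also changed sign, on the log2 scale, to 0.06 in the hippocampus without rat 5, to 0.06 in the thalamus without rat 6 and to -0.10 in the cortex without rat 4, and the median of thalamus minus cortex went from 0.07 to -0.03 without the libraries that stood apart. Among single promoters, signs turned for uncalled effects, given here as log2 values. The TBI effect of ENSRNOG00000048115 in the cortex was -0.10, and with each rat left out it ran from -0.31 to 0.20. That of ENSRNOG00000049342 in the cortex was -0.24 and ran from -0.44 to 0.040, above 0 without rat 6. In the thalamus ENSRNOG00000048115 was at -0.20 and ran from -0.46 to 0.085, the value without rat 6, the library there that stood apart. The interactions of hippocampus and thalamus ran from -2.74 to 0.11 for ENSRNOG00000048115 and from -2.23 to 0.091 for ENSRNOG00000049342, above 0 without rat 5. In the hippocampus ENSRNOG00000016307 ran from -0.22 to 2.28 and ENSRNOG00000046732 from -0.40 to 2.07, below 0 without rat 9. Apart from the libraries left out, the cause was not tested. The 13 to 30 counts of a median promoter in most hippocampus libraries limit single values.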

Other observations

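The identifiers of the promoters were not spread over the numbers that Ensembl gives to rat genes as those of all matched promoters were. Identifiers numbered above 45000 made up 20.01% of the 1564 promoters (313), 15.2% of all matched promoters and 12.1% of the promoters that reached the level but not the ratio. Of the 119 promoters that the same rule chose with the tissues exchanged, 19.3% (23) had such identifiers, so a high share was found in both directions. Among the 1564, they were 48 of the 100 and 9 of the 10 promoters with the largest ratios. The cut at 45000 was not among the planned comparisons, and the difference between these shares was not tested. What these genes share was not examined, since no symbols were paired with them.

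Of the promoters chosen from sham libraries alone (1530), 1234 were among the 1564, and of those chosen from TBI libraries alone (1745), 1382 were.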
